A study of Mus musculus with 51 samples.

Results

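The genes described here are 9 genes of the ventral forebrain and of the GABAergic lineage: the homeobox genes Dlx1, Dlx2, Dlx5, Dlx6, Gsx2 and Nkx2-1, the LIM homeobox gene Lhx6, and the glutamate decarboxylase genes Gad1 and Gad2. They were chosen by name from 22219 coding genes, with earlier results of these data known, and every peak that overlapped a gene body extended by 20 kb on each side was taken. Dlx1 with Dlx2 and Dlx5 with Dlx6 are neighbours, so the 9 genes fall in 7 windows. The chromatin came from an in vitro model of astrogliogenesis, in which C57/BL-6 mouse embryonic stem cells were turned into astrogliogenic neural progenitors (aNPC, grown in DMEM-F12 with N2, EGF and FGF-2) and then kept in DMEM with FBS and LIF for 1 day (early astrocytes, eA) or 5 days (late astrocytes, lA). H3K27ac and H3K4me1 were measured by ChIP-seq in 2 replicates per stage and mark, none of these samples was depleted of a factor, and the series holds 51 samples in all.

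The replicates of a stage were merged before peaks were called, so there is 1 peak list per mark and stage, no spread between cultures can be given, and no difference between stages was tested. The 6 lists held 79413, 83433 and 92700 H3K27ac peaks and 154238, 185478 and 208333 H3K4me1 peaks in aNPC, eA and lA, and the read depth behind them is unknown. Each peak carries the −log10 of its q-value, which grows with depth, so it is not compared between stages. Where the values of several stages stand side by side, each describes its own list, and "above" gives the share of that list with a lower value. A common minimum of 5 is used only as an alternative setting. Of 8 astrocyte marker genes, 5, 5 and 6 had a promoter H3K27ac peak at the successive stages. Aqp4, the water channel of astrocyte endfeet, had one in lA alone, and the gap junction gene Gja1 in eA and lA. S100b, a calcium-binding protein of astrocytes, had one in aNPC alone, and Aldh1l1 had none at any stage. Of 2 pluripotency markers, Pou5f1 and Nanog, neither had one at any stage. These calls are for promoters only, and the whole windows of these genes held H3K27ac peaks at each stage. There were 4, 3 and 3 at S100b, 21, 25 and 23 at Aldh1l1, 2, 4 and 4 at Pou5f1 and 1, 2 and 2 at Nanog.

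H3K4me1 marks enhancers and the flanks of promoters whether or not they are in use, while acetylation of H3K27 is added at enhancers and promoters that are active. A site with H3K4me1 and no H3K27ac is therefore often called primed. In the embryonic ventral forebrain, Gsx2 specifies progenitors of the lateral ganglionic eminence and Nkx2-1 those of the medial one. The DLX proteins act downstream of them and are needed for the differentiation and migration of GABAergic interneurons. Lhx6 is a target of Nkx2-1 in interneurons that leave the medial ganglionic eminence, and Gad1 and Gad2 encode GAD67 and GAD65, the enzymes that make GABA from glutamate. The 9 genes are thus tied to ventral forebrain progenitors or to GABAergic neurons, while the culture studied here is meant to yield astrocytes. The paper reports that the aNPC could also form neurons once LIF and FBS were taken away.

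The sequences under the peaks that the description turns on are printed first. For each window the distal peak of the highest −log10 q was taken from the earliest stage that had one, with H3K27ac preferred to H3K4me1, and 200 bases around its summit were read from mm9, plus strand. At 3 of the 7 windows (Dlx1/Dlx2, Nkx2-1 and Lhx6) that stretch overlapped an annotated UTR and is not shown. The other 4 are joined by 6 that were picked after the values were seen: the site upstream of Nkx2-1, an intron site of Lhx6, and further sites of Gad1 and Gad2 that differ in stage. Capitals mark exact matches, on either strand, to TAATTA (the core of many homeodomain sites), CAGCTG (an E-box), TGCCAA (the NF1 half-site) or TGANTCA (AP-1). Of the 10 sequences, 3 hold a match.
Upstream of Dlx6, H3K4me1 in aNPC, chr6:6810470-6810669: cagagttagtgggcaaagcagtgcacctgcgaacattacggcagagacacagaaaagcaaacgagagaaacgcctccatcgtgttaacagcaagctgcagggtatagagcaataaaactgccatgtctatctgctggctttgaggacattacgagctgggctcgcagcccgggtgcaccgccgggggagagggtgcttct
Downstream of Gsx2, H3K27ac in aNPC, chr5:75479032-75479231: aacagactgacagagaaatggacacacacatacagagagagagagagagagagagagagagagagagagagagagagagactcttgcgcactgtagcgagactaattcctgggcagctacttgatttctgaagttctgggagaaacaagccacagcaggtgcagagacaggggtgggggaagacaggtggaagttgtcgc
Upstream of Nkx2-1, H3K4me1 in lA, chr12:57641947-57642146: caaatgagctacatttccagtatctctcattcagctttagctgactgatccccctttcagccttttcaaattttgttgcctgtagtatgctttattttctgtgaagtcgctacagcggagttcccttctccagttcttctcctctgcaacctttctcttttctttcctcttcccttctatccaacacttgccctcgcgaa
Lhx6 intron, H3K27ac in lA, chr2:35944177-35944376: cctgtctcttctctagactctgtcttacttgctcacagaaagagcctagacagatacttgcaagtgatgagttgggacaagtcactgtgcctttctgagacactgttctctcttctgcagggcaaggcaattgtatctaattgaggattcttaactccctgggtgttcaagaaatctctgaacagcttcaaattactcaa
Upstream of Gad1 and inside 4933404M02Rik, H3K27ac in lA, chr2:70376193-70376392: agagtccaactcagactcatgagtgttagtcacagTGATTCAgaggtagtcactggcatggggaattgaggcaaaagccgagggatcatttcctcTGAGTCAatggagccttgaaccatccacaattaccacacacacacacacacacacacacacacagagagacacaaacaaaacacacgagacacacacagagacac
Gad1 intron, H3K27ac in eA, chr2:70430841-70431040: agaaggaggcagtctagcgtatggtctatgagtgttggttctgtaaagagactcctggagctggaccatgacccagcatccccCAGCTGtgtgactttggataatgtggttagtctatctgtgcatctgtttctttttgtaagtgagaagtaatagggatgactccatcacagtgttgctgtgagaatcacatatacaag
Gad1 intron, H3K27ac in aNPC, chr2:70431554-70431753: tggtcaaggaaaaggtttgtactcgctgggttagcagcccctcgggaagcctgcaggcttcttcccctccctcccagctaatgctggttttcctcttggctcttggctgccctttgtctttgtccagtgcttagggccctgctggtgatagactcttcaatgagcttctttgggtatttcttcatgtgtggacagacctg
Gad2 intron, H3K27ac in aNPC, chr2:22526238-22526437: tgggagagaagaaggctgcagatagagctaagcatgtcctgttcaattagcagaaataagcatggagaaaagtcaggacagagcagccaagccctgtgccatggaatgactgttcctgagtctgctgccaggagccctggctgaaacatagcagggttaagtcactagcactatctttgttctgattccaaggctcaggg
Gad2 intron, H3K27ac in lA, chr2:22536005-22536204: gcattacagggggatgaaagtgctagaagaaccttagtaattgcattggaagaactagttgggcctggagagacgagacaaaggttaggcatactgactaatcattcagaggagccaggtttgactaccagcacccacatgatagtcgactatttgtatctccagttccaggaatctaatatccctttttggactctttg
Downstream of Gad2, H3K27ac in aNPC, chr2:22560316-22560515: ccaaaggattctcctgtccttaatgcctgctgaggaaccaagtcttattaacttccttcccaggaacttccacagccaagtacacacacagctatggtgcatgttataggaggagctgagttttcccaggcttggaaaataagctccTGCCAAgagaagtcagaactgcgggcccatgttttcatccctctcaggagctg

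All 9 genes had H3K4me1 in their window at some stage, as did 85.9% of all coding genes, and 6 of them had H3K27ac. The 3 without any H3K27ac peak at any stage were Dlx5, Dlx6 and Nkx2-1, against 20.3% of all coding genes. The 7 windows together held 17, 15 and 24 H3K27ac peaks at the successive stages, over a length of 6175, 7100 and 9663 bp. H3K4me1 was more widespread at each stage, with 43, 45 and 60 peaks covering 25985, 29968 and 32337 bp. Of these, 12, 12 and 20 H3K27ac peaks and 33, 33 and 49 H3K4me1 peaks were distal, meaning that they overlapped no promoter. The median share of a gene's window under H3K27ac was 1.17%, 1.78% and 1.80% for these genes, and 2.47%, 2.80% and 2.70% for all coding genes, at aNPC, eA and lA respectively. For H3K4me1 the medians were 5.27%, 7.31% and 7.81%, beside 5.11%, 6.13% and 6.36% for all genes. For H3K27ac the medians lay below those of all genes at each stage, with 6, 7 and 5 of the 9 genes below. For H3K4me1 they lay close together in aNPC, and 4, 4 and 2 of the 9 genes were below the median of all genes. A median has about as many genes below it as above, so 5 of 9 for H3K27ac in lA is near the share of all genes. Dlx5 and Dlx6 lie in the same window and are counted separately. None of the other coding genes that reach into the 7 windows had its promoter there, and all genes were not matched for this.

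**Figure D1:**
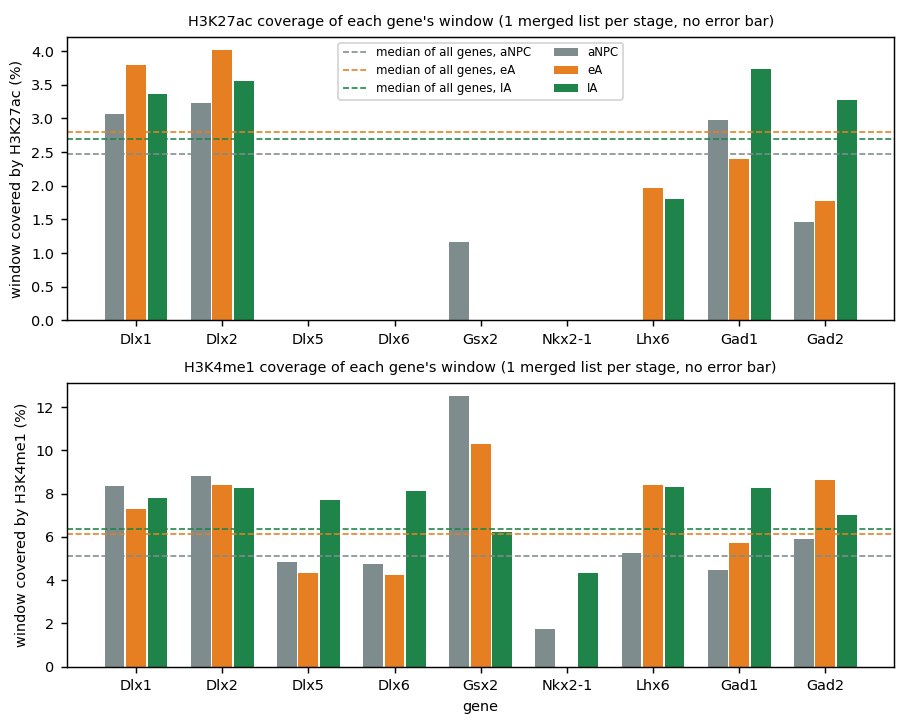
Share of each gene's window (gene body with 20 kb on each side, in %) under H3K27ac (top) and H3K4me1 (bottom) peaks in aNPC, eA and lA. Bars start at 0 and stand for 1 merged list each, and dashed lines give the median of all coding genes. Dlx5, Dlx6 and Nkx2-1 have no H3K27ac bar, Gsx2 has one in aNPC alone (1.17%), and Lhx6 has none in aNPC.

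A promoter was taken to begin 1 kb before a coding start site and to end 100 bp after it. Promoter H3K27ac was listed at 3 of the 9 genes in aNPC (Dlx1, Dlx2 and Gad1), at the same 3 in eA and at 2 in lA (Dlx1 and Gad1), while 50.6%, 53.2% and 48.2% of all coding genes had it at these stages. These calls depend on the definition. With the summit inside the promoter Gad1 alone was left in eA, and with the start site farthest 5′ alone Dlx2 was left in eA and no gene in lA. With a −log10 q of at least 5 Dlx2 dropped out in aNPC. Promoter H3K4me1 was listed at 7 of 9 at every stage, all but Gsx2 and Nkx2-1, against 55.5%, 53.6% and 52.8% of all coding genes. With a promoter reaching 1 kb downstream it was listed at 9, 8 and 9 of 9, with Nkx2-1 missing in eA alone. The share of all genes at that setting was not computed. With the summit inside the promoter, promoter H3K4me1 was listed at 4, 4 and 3 of 9, against 44.4%, 42.1% and 41.8%. The count of 7 is therefore not read as a difference from other genes. Dlx5, Dlx6, Lhx6 and Gad2 had promoter H3K4me1 at all 3 stages and promoter H3K27ac at none, that is 4 of 9 genes beside 5.40% of all coding genes. The pattern was also listed at 3 of 7 dorsal forebrain and excitatory markers (Emx1, Neurog2 and Slc17a7), 3 of 10 transmitter, receptor and peptide genes and 4 of 21 other ventral and GABAergic transcription factors, at 1 of 5 neuronal markers (Rbfox3), and at none of 8 astrocyte or 4 progenitor markers, so it is not particular to these 9 genes. The same 4 genes were found when only peaks with a −log10 q of at least 5 were kept and with lists of equal length, and Gsx2 joined them when the promoter reached 1 kb downstream. When the summit itself had to lie in the promoter, Dlx6 alone remained, 1 of 9 genes beside 6.15% of all coding genes, because the H3K4me1 summits of the other 3 lay inside the genes at 1 or more stages.

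Dlx1, which specifies and maintains GABAergic interneurons, carried the H3K27ac peak of the highest −log10 q among the 9 genes in aNPC and lA, and in eA that of Gad1 was higher. Its exon peak had a −log10 q of 60.1 in aNPC (above 86.9% of that list), 21.7 in eA (above 71.8%) and 24.3 in lA (above 84.4%). The summits lay 0.344 kb downstream, 0.456 kb downstream and 0.306 kb downstream of an internal start site of Dlx1, so the acetylation was present at all 3 stages at nearly one position. A further acetylated peak stood beside it in aNPC (−log10 q 13.0) and in lA (7.09). H3K4me1 covered the same stretch at each stage, with a −log10 q of 30.2, 43.3 and 17.9. Dlx1 has 4 annotated coding start sites and the one farthest 5′ had no peak of either mark in its promoter at any stage. The noncoding gene Dlx1as overlaps this site, and a peak, which has no strand, cannot be told apart between them.

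Dlx2, transcribed towards Dlx1 from the other end of the pair, was acetylated at different positions in different stages. In aNPC a weak peak lay 0.409 kb upstream of its start site (−log10 q 2.44, above 0.621% of the list). In eA a peak of 875 bp lay over its exon with the summit 0.336 kb downstream (19.7, above 69.7%), and in lA a shorter peak of 460 bp remained in that exon (5.73, above 30.3%). The lA peak ended short of the promoter as defined here, and with a promoter reaching 1 kb downstream Dlx2 counted as acetylated in lA too. H3K4me1 had covered both positions since aNPC in 1 peak of 1325 bp (40.5, above 95.2%), and it stayed in eA (20.9) and lA (24.9).

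The H3K27ac length in the Dlx1 window was 1402, 1740 and 1542 bp in the 3 stages. The difference of lA minus aNPC, 140 bp, is less than the shortest lA peak of the window (222 bp), so that 1 peak decides its sign, and it turned to -117 bp with lists of equal length, so no direction is read from it.

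**Figure D2:**
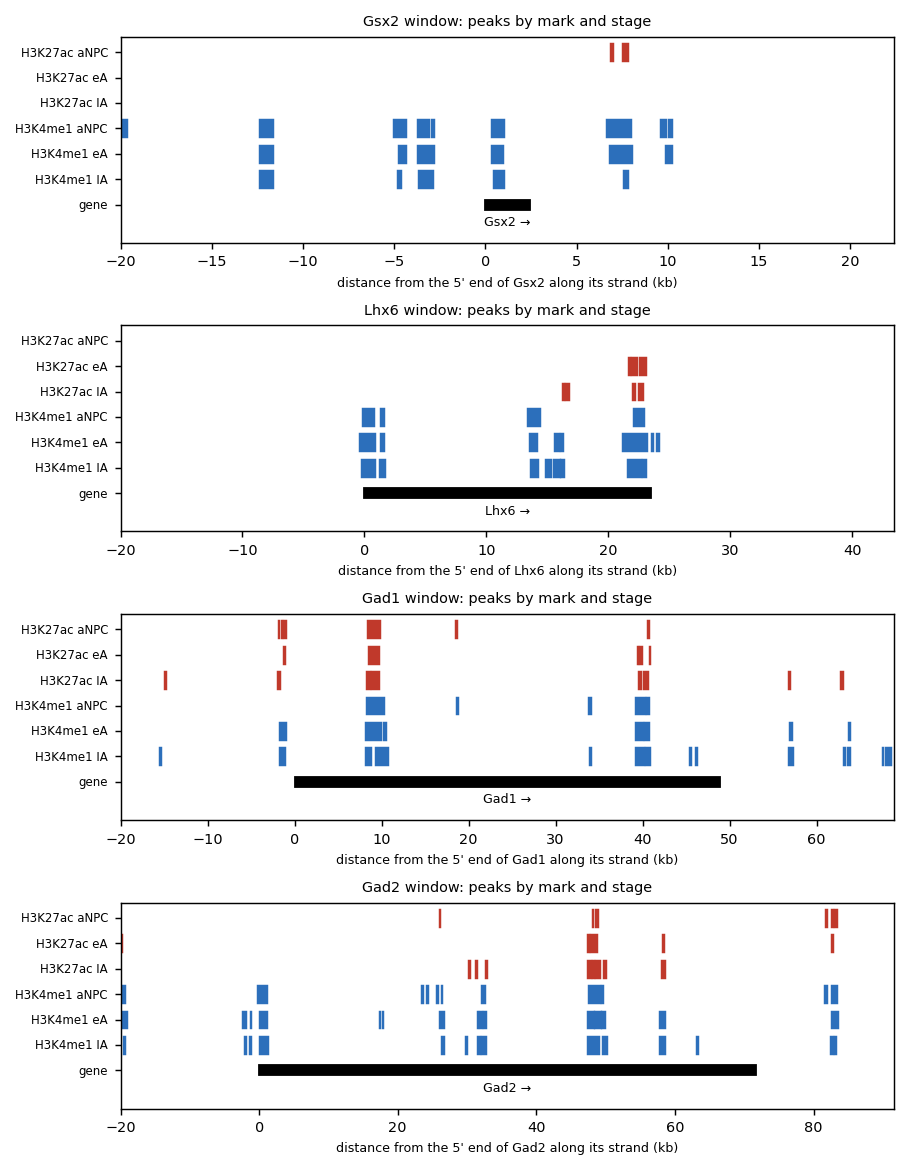
Peaks of H3K27ac (red) and H3K4me1 (blue) in aNPC, eA and lA at the Gsx2, Lhx6, Gad1 and Gad2 windows, drawn against the distance in kb from the 5′ end of the gene named under each panel. Black bars are gene bodies with an arrow for the direction of transcription. Acetylation in the Gad1 promoter and in the Gad2 intron is present in all 3 stages, that of Gsx2 in aNPC alone, and that of Lhx6 in eA and lA.

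Dlx5 and Dlx6, the second DLX pair, had no H3K27ac peak at any stage, and the nearest ones were 73.5 kb, 73.9 kb and 73.9 kb from the gene bodies in aNPC, eA and lA. Those peaks lay within 0.311 kb, 0.373 kb and 0.196 kb of a start site of another gene, Acn9. Their own promoters carried H3K4me1 throughout. At Dlx5 the peak had a −log10 q of 11.3 in aNPC (above 52.9% of the list), 16.5 in eA (above 74.4%) and 25.7 in lA (above 93.2%). At Dlx6 the exon peak had 14.3, 8.18 and 11.7, and a peak just upstream had 10.2, 10.3 and 10.3. Both genes of the pair therefore showed the primed pattern at their promoters from aNPC to lA.

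H3K4me1 peaks over the Dlx5/Dlx6 pair numbered 4, 4 and 8 at the successive stages. The 4 regions of aNPC were all kept in eA and lA, namely 3 at the promoters and 1 upstream of Dlx6 (−log10 q 2.30, 5.44 and 9.04). The further peaks of lA lay 6.86 kb and 3.18 kb upstream of Dlx6 (5.82 and 5.85), between the genes 7.42 kb from the Dlx5 start site (4.08), and 2.90 kb upstream of Dlx5 (8.78). Dlx1 was thus acetylated at every stage in these cells while Dlx5 and Dlx6 were marked by H3K4me1 alone. At Dlx2 the acetylation of aNPC rests on 1 peak of −log10 q 2.44, above 0.621% of its list.

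**Figure D3:**
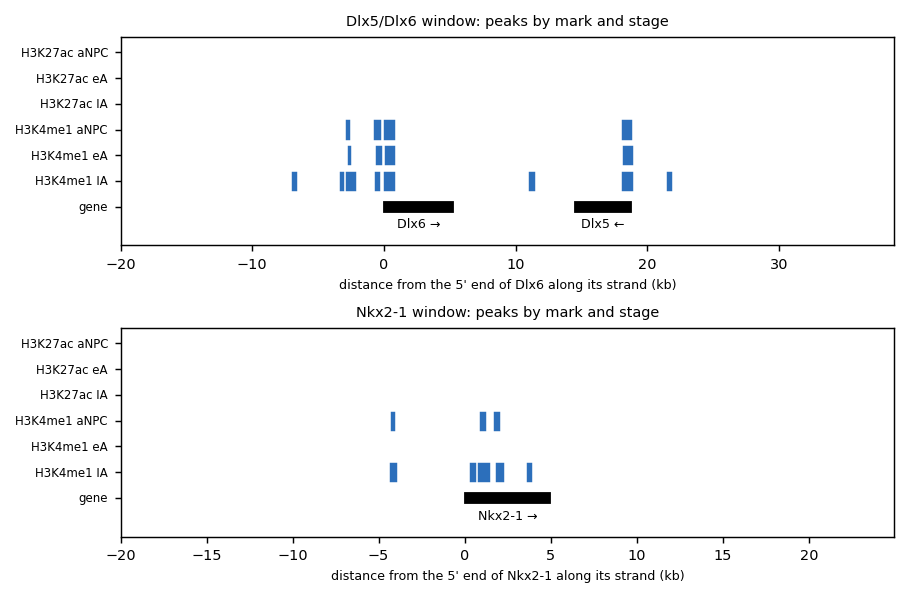
The same peaks at the windows without H3K27ac, Dlx5/Dlx6 and Nkx2-1, against the distance in kb from the 5′ end of Dlx6 or Nkx2-1. The 3 H3K27ac rows are empty, the Dlx5 and Dlx6 promoters hold H3K4me1 (blue) at each stage, and Nkx2-1 has no H3K4me1 peak in eA.

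Gsx2, the progenitor gene of the lateral ganglionic eminence, was acetylated in aNPC alone, and away from its promoter. The 2 peaks lay 6.76 kb (−log10 q 5.15, above 22.6% of the list) and 7.50 kb downstream of a start site (6.35, above 32.8%). Both fell within 1 H3K4me1 peak of 1400 bp in aNPC (24.3, above 81.4%). That H3K4me1 peak was still 1252 bp long in eA (23.1, above 86.5%), where no H3K27ac was listed, and 322 bp in lA (4.65, above 15.8%). At day 1 both positions were thus listed with H3K4me1 alone, and at day 5 the one at 7.50 kb had H3K4me1 alone and the one at 6.76 kb had neither mark.

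Around Gsx2 as a whole, H3K4me1 covered 5309, 4384 and 2643 bp at the successive stages, with 9, 6 and 5 peaks. In aNPC this was a larger share of the window than in 89.4% of coding genes, and in lA than in 49.1%. The peaks 12.3 kb upstream (−log10 q 20.9, 14.9 and 16.9) and over the exon (19.6, 17.9 and 14.3) were listed at all 3 stages. The exon peak began just beyond the promoter, so Gsx2 is counted without promoter H3K4me1. The 200 bases at the stronger acetylated summit, printed above, contain 23 repeats of AG in a run of 46 bases, and how uniquely reads align there was not tested.

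Nkx2-1, the selector gene of the medial ganglionic eminence, had the least signal of the 9. It had no H3K27ac peak, and the nearest ones lay 144 kb, 100 kb and 116 kb away in the 3 stages. H3K4me1 was listed in 3 peaks in aNPC, none in eA and 5 in lA, covering 777, 0 and 1953 bp. The site 4.22 kb upstream had a −log10 q of 6.86 in aNPC (above 31.9% of the list) and 16.9 in lA (above 79.5%). The 3 aNPC positions were the same as 3 of those in lA. Within the gene the aNPC peaks at 1.92 kb (11.3) and 1.05 kb (4.86) were both listed again in lA (10.0 and 10.6). In eA the nearest H3K4me1 peak lay 50.7 kb away.

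Lhx6, which directs the migration and subtype choice of interneurons from the medial ganglionic eminence, had no H3K27ac in aNPC, 3 peaks in eA and 4 in lA. The acetylated sites lay in the terminal exons and an intron, not at the promoter. In eA the summits were 21.3 kb (−log10 q 10.7, above 52.9% of the list), 20.9 kb (8.42) and 20.4 kb (2.43) downstream of the nearest start site. In lA the first 2 sites were again acetylated (4.12, above 13.6%, and 6.76, above 40.0%), and 2 intron peaks were added at 15.3 kb (5.01) and 15.0 kb (4.38).

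H3K4me1 was listed before the acetylation at 2 of the 3 sites at the 3′ end of Lhx6. In aNPC a peak of 869 bp (−log10 q 20.4, above 75.3% of the list) overlapped the sites at 21.3 kb and 20.9 kb and ended short of the weakest one at 20.4 kb. In eA the H3K4me1 peak was 2099 bp long and covered all 3. The intron site at 15.0 kb had H3K4me1 in eA and lA, and the one at 15.3 kb overlapped none at any stage. The promoter itself carried one of the strongest H3K4me1 peaks of the aNPC list (52.7, above 98.4%), which remained in eA (31.9, above 94.6%) and lA (25.0, above 92.5%) without H3K27ac. A further site inside the gene, 12.6 kb downstream, had 50.6 in aNPC (above 98.1%), 22.6 in eA and 9.14 in lA, also without H3K27ac. No other coding gene overlapped the acetylated sites, although Morn5 and Rbm18 reach into the window.

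Gad1 was acetylated at its internal promoter at every stage. The noncoding gene 1500002O10Rik overlaps this promoter site too, and acetylation there cannot be told apart between them. The peak was 1558 bp long in aNPC (−log10 q 23.4, above 71.8% of the list) and 1271 bp in eA (22.8, above 72.8%), and in lA it was listed as 2 peaks of 453 and 944 bp (7.22, and 19.7 above 79.7%). H3K4me1 covered the region with 37.1 in aNPC (above 93.4%), 31.2 in eA and 27.6 in lA. A region upstream of the start site farthest 5′, within the noncoding gene 1500002O10Rik, was also acetylated, with 3 peaks in aNPC (4.23, 3.10 and 9.98), 1 in eA (4.35) and 1 in lA (7.81). It had no H3K4me1 peak in aNPC and 1 in eA (12.5) and in lA (7.13). Acetylation without H3K4me1 was thus listed there in aNPC.

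In the Gad1 gene body a cluster of sites around 30 kb downstream was acetylated in every stage and shifted in position. In aNPC the peak lay at 30.2 kb (−log10 q 4.74), in eA peaks lay at 28.9 kb, 29.4 kb and 30.4 kb (2.87, 8.33 and 2.87), and in lA at 29.3 kb and 29.8 kb (5.85 and 7.24). These intron peaks do not all overlap each other, and they form 3 of the joined sites described further on. H3K4me1 lay over the cluster in 2 peaks at each stage. The nearer one was 1062, 936 and 1039 bp long (17.0, 24.9 and 19.6), and the farther one, which is the one over the acetylated peak of aNPC, was 347, 583 and 494 bp long (5.44, 17.2 and 5.96). A small intron peak at 8.18 kb (2.98) was listed in aNPC alone. In lA alone, acetylated peaks were listed 14.8 kb upstream (3.28), inside the annotated genes 4933404M02Rik and 1500002O10Rik, and 46.4 kb and 52.4 kb downstream (4.46 and 3.75). H3K4me1 peaks in the window numbered 5, 7 and 14 in the 3 stages. In lA they extended to 57.8 kb downstream (13.1, above 69.3%), where neither earlier stage had one.

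Gad2 differed from Gad1 in that its promoter had H3K4me1 alone, with a −log10 q of 23.8, 22.4 and 26.0 (above 80.6%, 85.4% and 93.5% of the lists). Its acetylation lay in the gene body and beyond. An intron site about 48 kb downstream was acetylated at all 3 stages, in aNPC at 48.6 kb (12.2, above 56.7%), in eA in a peak of 1099 bp (19.8, above 69.8%) and in lA in a peak of 815 bp (13.9, above 69.6%). Over the 3 stages it spanned 1901 bp, the longest of the 33 acetylated sites in the 7 windows. Its highest H3K4me1 peak had 47.1 in aNPC (above 97.4%), 50.2 in eA (above 99.3%) and 24.6 in lA (above 92.1%). In eA a further H3K4me1 peak (16.9, above 75.5%) lay over the site.

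A second intron site of Gad2 was acetylated in eA and lA. It lay 58.3 kb downstream in eA (−log10 q 7.85, above 41.5% of the list) and 58.4 kb in lA (16.1, above 74.1%), and H3K4me1 was listed there in eA (13.3) and lA (11.4) and not in aNPC. In lA alone there were further intron peaks at 30.2 kb, 31.3 kb, 32.8 kb and 49.9 kb (4.25, 3.75, 5.41 and 7.22). Downstream of the gene the order was the reverse. Peaks at 81.8 kb, 82.7 kb and 83.2 kb were acetylated in aNPC (3.54, 5.38 and 7.42), that at 82.7 kb again in eA (3.12), and none in lA. In aNPC alone there was also an intron peak at 26.0 kb (6.71), and in eA alone one 19.9 kb upstream (2.55). Downstream acetylation was thus listed in the earlier stages, and intron acetylation at each stage but at more positions in lA. H3K4me1 at the 82.7 kb site was listed at all 3 stages (14.7, 12.5 and 6.48). The H3K27ac length of the window was 1631, 1987 and 3658 bp at the successive stages, the largest difference between aNPC and lA of the 9 genes (2027 bp, and 1280 bp with a −log10 q of at least 5).

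Comparing aNPC with lA over each gene's own window, H3K27ac length was higher in lA for 5 of the 6 genes that had any (Dlx1, Dlx2, Lhx6, Gad1 and Gad2), beside 51.3% of 17703 coding genes, and lower for Gsx2, beside 47.2%. Dlx1 and Dlx2 share their peaks and turned to lower in lA with lists of equal length. H3K4me1 length was higher in lA for 6 of 9 genes (Dlx5, Dlx6, Nkx2-1, Lhx6, Gad1 and Gad2), beside 68.8% of 19076 coding genes, and lower for Dlx1, Dlx2 and Gsx2, beside 30.6%. The genes' H3K4me1 shares are close to those of all genes.

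Peaks of the 3 stages that overlapped by at least 1 bp were joined into 33 acetylated sites, of which 5 touched a promoter and 28 were distal. Of the distal sites 7 were acetylated in aNPC only (25.0%, against 23.9% of all 115822 distal sites), 3 in eA only (10.7%, against 11.8%) and 10 in lA only (35.7%, against 21.7%). The patterns that combine stages were 1 site in aNPC and eA (3.57%, against 4.55%), 1 in aNPC and lA (3.57%, against 3.63%), 4 in eA and lA (14.3%, against 15.3%) and 2 at all stages (7.14%, against 19.2%). The 2 sites of all stages lie in the introns of Gad1 and Gad2. In Gad2 the peaks of the 3 stages overlap each other, while in Gad1 the eA and lA peaks share no base and are joined through the aNPC peak. The 20 sites of 1 stage make 71.4% of the distal sites, and 57.3% of all. Many of them had weak peaks, and the order of the patterns depends on the setting. With a −log10 q of at least 5 there were 5 sites of aNPC only and 5 of lA only among 15, and with lists of equal length 8 and 6 among 21. With windows of 50 kb, 12 of 53 sites were of lA only (22.6%, against 21.7% of all) and 8 were of all stages (15.1%, against 19.2%), and sites of 1 stage made 56.6%, so none of these shares is read as a trait of these genes.

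**Figure D4:**
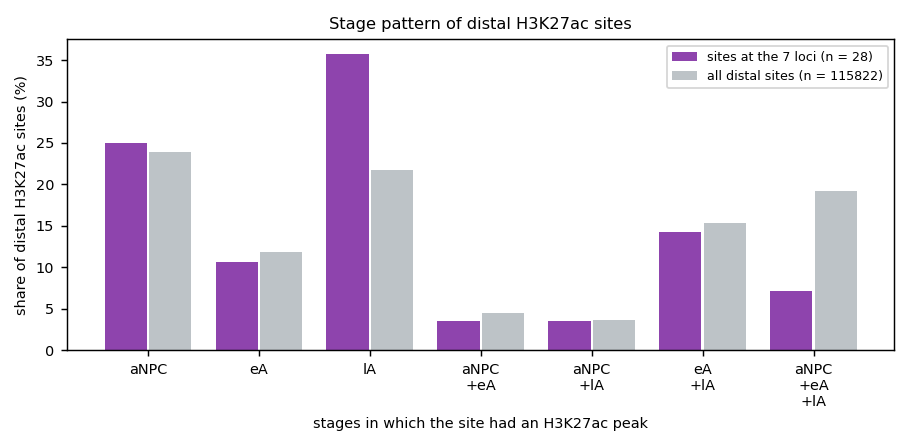
Share (in %) of the 28 distal H3K27ac sites at the 7 windows (purple) and of all 115822 distal sites (grey) by the stages in which they had a peak. Sites of lA only take 35.7% here and 21.7% of all, and sites of all 3 stages take 7.14% and 19.2%, while with windows of 50 kb the shares here are 22.6% and 15.1%. The bars are counts of 1 merged list per stage and carry no error.

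Most distal H3K27ac peaks of the 7 windows lay over H3K4me1 of the same stage. This held for 9 of 12 in aNPC (75.0%, 95% Wilson interval 46.8 to 91.1), 12 of 12 in eA (100%, 75.8 to 100) and 15 of 20 in lA (75.0%, 53.1 to 88.8). The intervals cover counting error only, and neighbouring peaks are not independent. Among all distal H3K27ac peaks the shares were 82.2%, 88.4% and 84.5%. Of the 17 distal sites that were acetylated after aNPC and not in it, 5 (29.4%) had H3K4me1 in aNPC, against 49.2% of all such sites. The 5 were 2 of the 3 sites at the 3′ end of Lhx6, 2 sites in the Gad1 intron cluster and the site 19.9 kb upstream of Gad2, which lies within Myo3a. The share of 29.4% was not recomputed at other settings, and the sites it counts change with the setting. It is therefore not read as a trait of these genes.

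The letters of 4 motifs were searched in the 200 bases around the summit of each of the 28 distal sites, on both strands, each motif on its own, so that a base may serve more than one. TAATTA was found at none of the 28, which allows a share of up to 10.7%, and at 3.98% of all distal sites. CAGCTG was found at 3 sites (10.7%), against 12.2% of all, at Lhx6 in the eA site and at 2 of the Gad1 intron cluster. TGCCAA was found at 2 sites (7.14%), against 12.3% of all, 1 upstream of Gad1 and the 82.7 kb site of Gad2. TGANTCA was found at 2 sites (7.14%), against 6.73% of all. These are the lA site 14.8 kb upstream of Gad1, which lies inside 4933404M02Rik and holds 2 matches, and the eA site 19.9 kb upstream of Gad2.

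The 21 coding start sites of the 9 genes were described by their CpG content. The ratio of observed to expected CpG in the promoter had a median of 0.536, beside 0.427 over 45926 start sites, and it reached 0.6 at 9 of 21, beside 31.3% of all start sites. Gad1 has 5 of the 21 start sites, Dlx1 has 4 and Gsx2 has 3. Many of these lie close together with overlapping promoters, so the 21 values are not independent. The highest values were 0.807 at an internal start site of Gad1, 0.793 at Dlx2 and 0.761 at an internal start site of Lhx6. Gsx2 had 0.345 to 0.438 and Gad2 0.468. High values occurred at genes without promoter H3K27ac too, with 0.736 at an internal start site of Dlx6.

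Other genes of the same lineage were read in the same way. Of 21 further transcription factors of ventral and GABAergic cells, 12, 13 and 12 had promoter H3K27ac in aNPC, eA and lA and 16, 15 and 16 had promoter H3K4me1. Among them, Gsx1, Sp8, Lhx8 and Isl1 had H3K4me1 at the promoter throughout and no H3K27ac peak in the window, as at Dlx5 and Dlx6. Six3 differed between stages, with promoter H3K27ac in eA alone. Of 10 transmitter, receptor and peptide genes, 3, 4 and 3 had promoter H3K27ac and 7, 7 and 7 had promoter H3K4me1. In this group Cxcr4, the receptor that guides migrating interneurons, had promoter H3K27ac in aNPC and eA and not in lA. Pvalb, the calcium buffer of fast-spiking interneurons, had it in eA and lA and not in aNPC. Slc32a1, the vesicular GABA transporter gene, had promoter H3K4me1 at each stage without H3K27ac there.

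Markers of other cell types were read in the same lists. Of 5 neuronal markers 2, 1 and 1 had promoter H3K27ac in aNPC, eA and lA, and the synaptic vesicle gene Syt1, in aNPC alone, made the difference. Of 7 dorsal forebrain and excitatory markers 2, 2 and 1 had it, Eomes in aNPC and eA alone, and of 4 progenitor markers 3 had it at each stage. Peaks in a mixed culture sum over all cells, so a mark present in few cells and a weak mark in all cannot be told apart, and whether a minority of GABAergic cells contributed to these peaks was not tested.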

How the data were processed

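The data were ChIP-seq of H3K27ac and H3K4me1 in aNPC, eA and lA, 2 replicates each (12 of 51 samples; 8 RNA-seq libraries with conflicting labels stayed unassigned, and RNA-seq and depletion samples were not analysed here). The authors ran FASTQC, kept reads that Bowtie placed uniquely on mm9, merged replicates with SAMtools 0.1.19 (per the submitters' processing notes) and called peaks with MACS2 at default settings, without input. The deposited −log10 q-values of the authors were used to rank or filter peaks within a list, and the deposited positions, in bp, and the summits (other columns) as given. Mitochondrial peaks were set aside. At 1 window a site that enters the counts is not reported here.

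With Python 3.11.15 (plots: matplotlib 3.10.9), peaks overlapping a gene body of GENCODE M1 (mm9) plus 20 kb were taken. No peak ran past a chromosome end of the NCBIM37 genome. Promoters spanned 1 kb upstream to 100 bp downstream of coding start sites. Peaks shared 1 bp or more when called overlapping. Interval and overlap code was tested on simulated data. Covered length is the number of bases under peaks. Intervals are 95% Wilson. With merged replicates no test was possible. The members and lists were chosen with earlier results of these data known. Named genes are all 9 members, and of the other lists those whose promoter H3K27ac differed between stages, with a few named after their values were seen. Alternatives were a −log10 q of at least 5, equal list lengths, windows of 5 and 50 kb, wider promoters, summits in place of overlap, and, added after seeing the data, the start site farthest 5′ alone.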

Additional observations from a re-analysis of the deposited data

How the results depend on the processing

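Of 146 recomputed values 88 stayed within 1.5 times the reported count or length with the same direction, 56 moved and 2 reversed; the causes were not tested beyond the construction of each setting. No paired analysis was possible because the replicates were merged before peaks were called, and for the same reason no replicate could be left out. With lists of equal length (79413 H3K27ac and 154238 H3K4me1 peaks) the H3K27ac length of lA minus aNPC went from 140 to -117 bp at Dlx1 and Dlx2 and from 677 to 225 bp at Gad1. The distal H3K27ac peaks of eA fell to 7, all 7 with H3K4me1, and the distal sites numbered 8 in aNPC only, 1 in eA only, 6 in lA only, 0 in aNPC and eA, 2 in aNPC and lA and 1 at all stages. With a −log10 q of at least 5 distal H3K27ac peaks numbered 7, 5 and 11 in aNPC, eA and lA and distal H3K4me1 peaks 21 in aNPC. All 5 of eA had H3K4me1. The distal sites were 5 in aNPC only, 1 in eA only, 5 in lA only, 0 in aNPC and eA, 0 in aNPC and lA and 1 at all stages. The lA minus aNPC lengths were 61 bp at Dlx1 and Dlx2, 598 at Lhx6 and 1280 at Gad2. A window of 5 kb left 5 distal H3K27ac peaks of aNPC with H3K4me1, 4 sites in aNPC only and 0 in aNPC and eA. A window of 50 kb gave 29, 26 and 37 distal H3K27ac peaks (23, 24 and 30 with H3K4me1), 56, 58 and 84 distal H3K4me1 peaks, and 11 sites in aNPC only, 7 in eA only, 12 in lA only, 2 in aNPC and eA, 7 in aNPC and lA and 8 at all stages. With summits in place of overlap, promoter H3K27ac in eA was at 1 gene, promoter H3K4me1 at 4, 4 and 3, and the sites in aNPC and eA, in aNPC and lA and at all stages were 2, 2 and 1. With the start site farthest 5′ alone, chosen after seeing the data, promoter H3K27ac was at 1 gene in eA and 0 in lA. Motif counts at the 28 sites in 500 bp and in the whole site were 3 and 2 for TAATTA (11.8% and 11.7% of all sites), 5 and 5 for CAGCTG (27.3% and 27.9%), 7 and 5 for TGCCAA (30.4% and 29.5%) and 4 and 6 for TGANTCA (17.9% and 17.6%). For TAATTA the 3 sites are 10.7%. A promoter reaching 1 kb downstream moved none of 22 counts by over 1.5 times. The depth of the merged libraries is unknown and limits any reading of a missing peak.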
